A study of Mus musculus with 18 samples.

Results

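The 32 genes described here carry glucose into the cell, split it to pyruvate, and send the pyruvate on to lactate or to the mitochondrion. They were taken by gene symbol from a count table of 45706 genes, and all 32 were found and passed the filter on low counts. RNA was sequenced from mouse induced pluripotent stem cells (iPSCs) with Hmga2 present (wt) and from 2 Hmga2 KO clones, KO#1 and KO#2, before (0 h) and 24 h after induction into epiblast-like cells (EpiLCs). Each of the 6 groups held 3 biological replicates, 18 libraries in all, and the wt libraries came from 1 clone, so that clone and genotype cannot be told apart in any difference from wt. Hmga2 encodes a small protein that binds AT-rich DNA. The 0 h cells of every line grew on inactivated fibroblasts with leukaemia inhibitory factor and the MEK and GSK3 inhibitors PD0325901 and CHIR-99021. For 24 h they were then kept without feeders on a basement membrane matrix with Activin A and bFGF, so feeders, matrix and medium changed together with time.

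Glucose enters through facilitative transporters of the Slc2a (GLUT) family, is trapped by hexokinase, committed by phosphofructokinase and turned into pyruvate by the payoff enzymes from Gapdh to Pkm. Pyruvate is either reduced to lactate by lactate dehydrogenase and exported by monocarboxylate transporters, or enters mitochondria through Mpc1 and meets pyruvate dehydrogenase, which the Pdk kinases switch off. Naive pluripotent cells are known to use glycolysis together with respiration, and the passage to the primed state is known for a turn towards glycolysis.

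Total counts ranged from 3466436 to 23872837 per library, and the shallowest was wt 0 h replicate 1. Values are CPM, the counts of a gene relative to the size of its library after scaling by edgeR's TMM factors, and on this scale 3 counts equalled 0.116 to 0.984 CPM. Protein-coding genes took 41.3% to 84.7% of the counts, and 7SL, 7SK and the ribosomal repeat transcript Gm26917 took 8.51% to 40.5%. The protein-coding share was highest, at 82.3% or above, in the 24 h libraries labelled KO#2. Without TMM scaling the median change over all genes moved on the log2 scale from 0.20 to 1.24 for KO#2 against wt at 24 h, and from 0.03 to -0.58 for 24 h against 0 h in wt. Hmga2 RNA averaged 17.7 CPM in wt cells at 0 h against 5.50 CPM in KO#1 and 4.73 CPM in the libraries labelled KO#2. At 24 h the means were 5.77, 2.26 and 5.65 CPM. The KO#2 value at 24 h did not separate from wt (log2 fold change -0.04 ± 0.60 (SE), adjusted p = 0.966), and these libraries are therefore named by their label. The summed level of 10 naive markers lay between 2502 and 4303 CPM in the 9 libraries of 0 h. At 24 h it was 300.5 to 327 CPM in wt, 485 to 604 CPM in KO#1 and 313 to 719 CPM in KO#2. For 8 primed markers the sums were 105 to 205 CPM at 0 h, and at 24 h 1331 to 2209.9 CPM in wt, 578 to 1159.6 CPM in KO#1 and 555 to 1294 CPM in KO#2. The wt libraries thus stand apart from both clones in the primed sums at 24 h, and from KO#1 in the naive sums. Such sums weigh abundant genes most. By the mean of log2(CPM + 1) over the primed markers, KO#2 replicate 1 (5.986) lay above wt replicate 1 (5.916) at 24 h. By that of the naive markers, wt (3.643 to 3.824) lay below each clone. Otx2 averaged 42.9 CPM in wt, 75.3 in KO#1 and 51.6 in KO#2 at 24 h, and Zic2 24.9, 15.0 and 24.6 CPM. The other primed markers had higher means in wt than in each clone. The 8 fibroblast markers summed to 110.0 to 390.0 CPM in wt, 183 to 514 CPM in KO#1 and 331 to 898 CPM in the libraries labelled KO#2 at 0 h, and to 19.0 to 34.6, 38.7 to 51.8 and 71.0 to 219 CPM at 24 h. The 6 primitive endoderm markers summed to 4.87 to 6.23 CPM in wt, 6.26 to 9.64 CPM in KO#1 and 8.63 to 11.3 CPM in KO#2 at 0 h, and to 1.36 to 1.99, 2.99 to 7.79 and 14.2 to 28.2 CPM at 24 h, where Pdgfra averaged 0.246 CPM in wt and 10.3 CPM in KO#2. At 0 h the primitive endoderm sums of each clone lay above those of wt, for KO#1 by a narrow margin, and its genes did not move together. Dab2, Pdgfra and Gata6 had higher means in each clone (Dab2 1.08 CPM in wt, 3.22 in KO#1 and 3.56 in KO#2). Sox17 (0.648, 0.260 and 0.227 CPM) and Sox7 (0.891, 0.0629 and 0.184 CPM) had lower means, as had Gata4 in KO#2 (1.17 CPM against 2.17 in wt). The fibroblast sums of each clone overlapped with those of wt at 0 h. These sums move with time or with the line, and their part in the changes over time and in the differences from wt at 0 h and 24 h was not tested. Levels in such bulk RNA are shares of a library, in which fewer cells of a type and less RNA per cell cannot be told apart.

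Promoters are shown for the 4 members that rose over the induction in all 3 lines, Slc16a3, Pdk1, Eno1 and Eno3, and for Ldha, the member with the most matches to the hypoxia-response core ACGTG. Each run spans 250 bases before to 50 bases after a transcription start in RefSeq (GRCm38.p6), read on the strand of the gene, and capitals mark ACGTG or its reverse complement. They lie at chr11:120948817-120949116 (Slc16a3, plus strand), chr2:71872974-71873273 (Pdk1, plus), chr4:150236458-150236757 (Eno1, plus), chr11:70656926-70657225 (Eno3, plus) and chr7:46845554-46845853 (Ldha, plus).
Slc16a3: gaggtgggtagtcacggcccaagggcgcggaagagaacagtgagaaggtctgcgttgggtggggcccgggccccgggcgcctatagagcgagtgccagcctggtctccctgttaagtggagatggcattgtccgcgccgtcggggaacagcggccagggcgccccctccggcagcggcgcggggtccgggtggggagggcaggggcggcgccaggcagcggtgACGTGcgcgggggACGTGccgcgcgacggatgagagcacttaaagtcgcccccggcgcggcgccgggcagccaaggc
Pdk1: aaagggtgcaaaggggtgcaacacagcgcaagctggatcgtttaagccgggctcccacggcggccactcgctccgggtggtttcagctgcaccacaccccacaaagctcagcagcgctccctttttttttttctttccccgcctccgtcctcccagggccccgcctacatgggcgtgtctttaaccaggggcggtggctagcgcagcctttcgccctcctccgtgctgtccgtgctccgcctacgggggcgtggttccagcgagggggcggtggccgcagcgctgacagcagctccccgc
Eno1: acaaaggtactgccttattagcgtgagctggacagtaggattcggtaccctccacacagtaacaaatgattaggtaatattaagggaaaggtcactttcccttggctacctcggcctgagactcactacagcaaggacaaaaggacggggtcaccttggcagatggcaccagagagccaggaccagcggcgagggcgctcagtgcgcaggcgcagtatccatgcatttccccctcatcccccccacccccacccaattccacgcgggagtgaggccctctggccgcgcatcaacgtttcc
Eno3: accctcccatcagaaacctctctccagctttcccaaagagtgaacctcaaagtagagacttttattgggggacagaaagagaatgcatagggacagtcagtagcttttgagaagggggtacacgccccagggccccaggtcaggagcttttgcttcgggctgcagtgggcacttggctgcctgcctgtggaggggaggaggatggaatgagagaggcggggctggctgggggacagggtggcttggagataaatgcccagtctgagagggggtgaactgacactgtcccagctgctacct
Ldha: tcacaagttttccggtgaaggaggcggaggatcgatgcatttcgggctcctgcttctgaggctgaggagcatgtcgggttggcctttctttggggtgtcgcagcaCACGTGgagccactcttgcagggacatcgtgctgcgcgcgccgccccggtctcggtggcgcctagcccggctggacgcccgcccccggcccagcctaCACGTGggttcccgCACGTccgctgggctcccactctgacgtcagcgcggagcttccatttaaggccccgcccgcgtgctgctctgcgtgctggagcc
Slc16a3 holds the core at positions -27 and -14, counted from 0 at the start. The other 3 promoters that belong to members rising in all 3 lines hold none. Ldha holds 5 matches, of which 4 come from 2 copies of the E-box CACGTG, a palindrome that contains ACGTG on both strands. A promoter was found for 31 members, all but Slc2a3. On either strand 13 of the 31 (41.9%) hold ACGTG, against 19.6% of 32851 promoters of the same length, and 4 (12.9%) hold CACGTG, against 7.15%. The sequence AAGGTCA, read by estrogen-related receptors, is in the promoters of Tpi1 and Eno1 (6.45%, against 4.72% of all). These are matches of letters, with no binding measured here.

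The first question is how the pathway changed as cells left the naive state. In wt cells, the transporter Slc2a3, the hexokinase Hk1 and the neuronal enolase Eno2 fell most, and the muscle enolase Eno3 and the lactate exporter Slc16a3 rose most. Calls are those of the main fit unless another is named (edgeR quasi-likelihood test, TMM scaling, 1 fit of all 18 libraries, Benjamini-Hochberg adjusted p under 0.05 over 16619 genes). Of the 32 members, 8 were called higher and 10 lower in wt cells, where 26% of all genes were called higher and 24.7% lower. In KO#1, 5 were higher and 7 lower, against 20.1% and 20.6% of all genes. In the libraries labelled KO#2, 6 were higher and 6 lower, against 12.7% and 13.3%. The median log2 fold change of the members was 0.18 in wt, -0.04 in KO#1 and 0.08 in KO#2, and that of all genes 0.03, 0 and -0.03. In wt and KO#1 the counts in each direction lie near the shares over all genes and are no particular property of the members. The same 4 members, Eno1, Eno3, Pdk1 and Slc16a3, were called higher in all 3 lines, and the same 4, Slc2a3, Hk1, Eno2 and Ldhb, lower, where 7.61% and 8.33% of all genes were. With library sizes alone 2 were higher and 14 lower in wt, where 9.55% and 35.2% of all genes were. In KO#1 the split was 3 and 13 (5.04% and 39.1% of all genes), and in KO#2 4 and 4 (7.65% and 9.83%). The KO#2 count was 7 instead of 12 without 0 h replicate 1, without 24 h replicate 1 or without 24 h replicate 3. Of all genes 15.8%, 23.8% and 14.8% were called in these fits, next to 26% with every library.

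**Figure D1:**
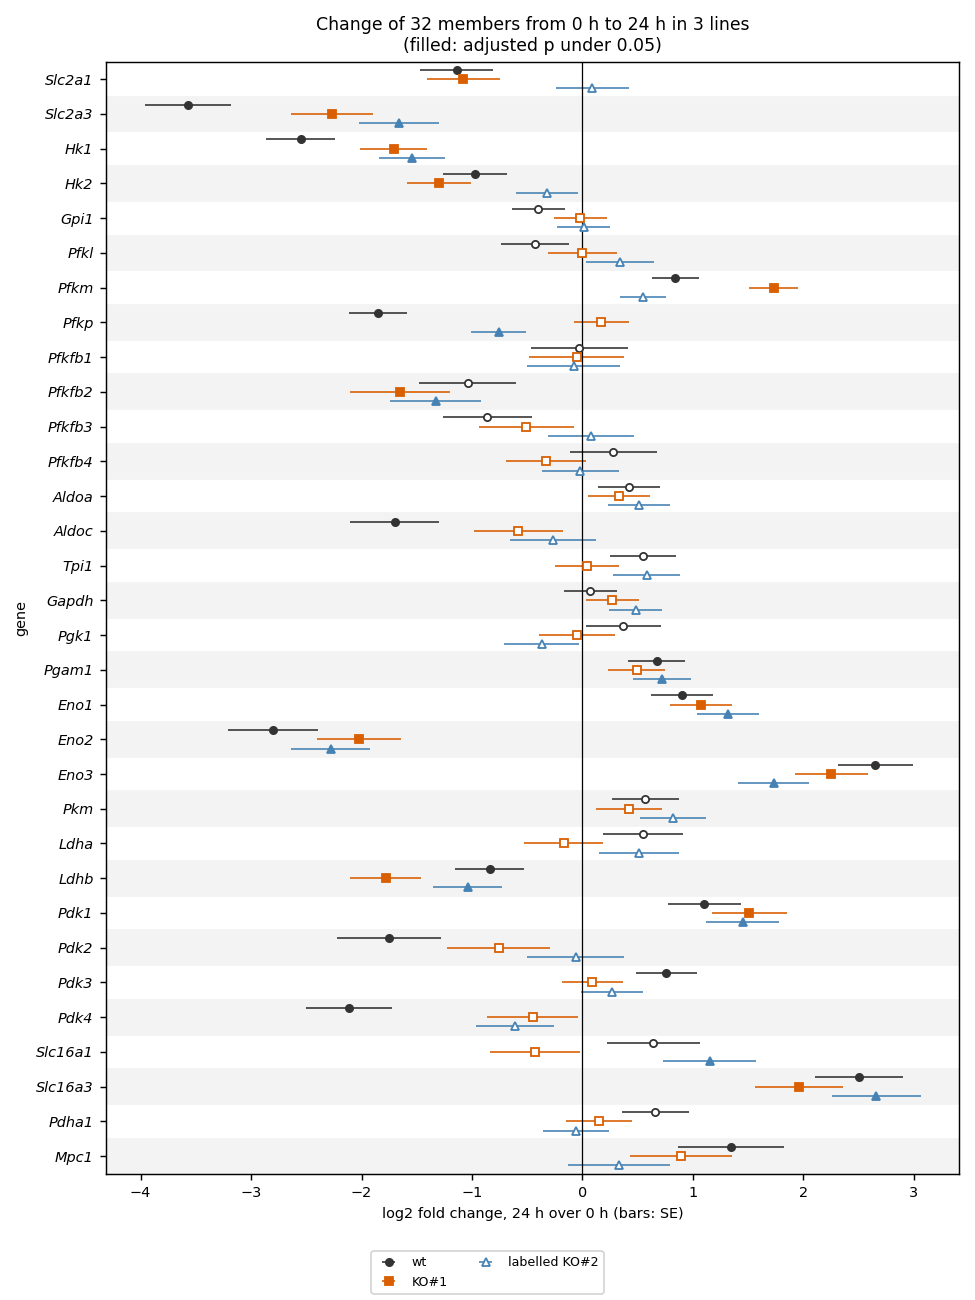
Log2 fold change of each of the 32 members from 0 h to 24 h (horizontal axis) in wt (circles), KO#1 (squares) and the libraries labelled KO#2 (triangles), with bars of 1 SE and filled symbols for an adjusted p under 0.05. Slc2a3, Hk1, Eno2 and Ldhb lie left of 0 and Eno1, Eno3, Pdk1 and Slc16a3 right of 0 in all 3 lines, and Pfkp is called lower in wt and in the libraries labelled KO#2 and sits near 0 in KO#1.

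The next question is where the KO libraries differed from wt at each time point. At both times Gpi1 and Ldhb were lower in both clones, 2 sets of values that share the wt libraries as controls. At 24 h Pfkp was higher than in wt in each clone. KO#1 had 1 member higher and 3 lower than wt at 0 h, where 3.99% and 2.68% of all genes were called, and 2 higher and 2 lower at 24 h, against 6.25% and 3.61%. The libraries labelled KO#2 had 3 higher and 12 lower at 0 h, against 21.5% and 16.6% of all genes, and 5 higher and 9 lower at 24 h, against 21.3% and 16%. The median log2 fold change of the members was -0.26 and -0.21 in KO#1 at 0 h and 24 h, with 0.02 and -0.02 for all genes. For KO#2 it was -0.51 and 0.05, with 0.10 and 0.20 for all genes. With library sizes alone, the KO#2 split was 5 higher and 3 lower at 0 h, where 29.9% and 3.2% of all genes were called. At 24 h it was 16 higher and 0 lower, against 58.2% and 3.2% of all genes. The KO#1 split was 1 and 1 at either time, against 3.44% and 1.38% at 0 h and 4.16% and 2.38% at 24 h. Fitted on the groups compared alone, edgeR called 0 of the 32 in KO#1 at 0 h, with 6 at an unadjusted p under 0.05, and 3.45% of all genes instead of 6.67%. DESeq2 called 8 in KO#1 at 24 h instead of 4, and 12.8% of all genes instead of 9.86%.

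**Figure D2:**
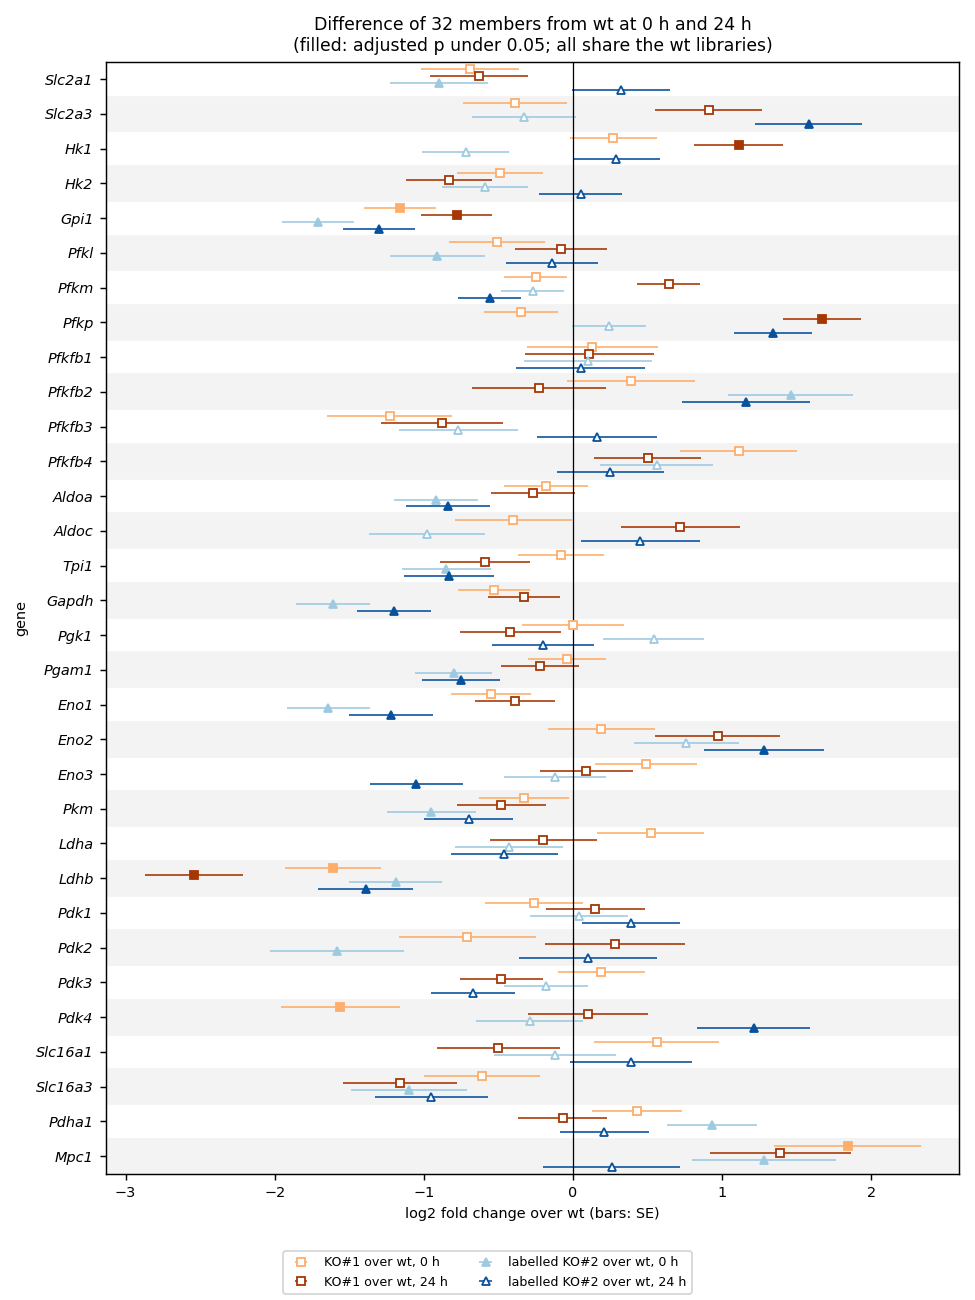
Log2 fold change of each member against wt (horizontal axis) for KO#1 (squares, orange) and the libraries labelled KO#2 (triangles, blue), pale at 0 h and dark at 24 h, with bars of 1 SE and filled symbols for an adjusted p under 0.05. In the main edgeR fit shown, Gpi1 and Ldhb are called lower in all 4 comparisons, and Gapdh and Eno1 are called lower only for KO#2.

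Some of the fits that leave out 1 library gave lower counts, and in these the share of all genes called was lower as well. For KO#1 at 0 h, 2 members were called without wt replicate 3 (3.45% of all genes) or without KO#1 replicate 3 (4.45%), next to 4 members and 6.67% with every library. At 24 h, 2 were called without wt replicate 1 (6%), wt replicate 2 (5.99%) or KO#1 replicate 2 (6.77%), next to 4 and 9.86%. For KO#2 at 0 h, 5 were called without KO#2 replicate 2 (28.1%), 7 without wt replicate 3 (25.9%) and 9 without KO#2 replicate 1 (27.7%), next to 15 and 38.1%. At 24 h, 7 were called without KO#2 replicate 2 (29.1%) and 8 without wt replicate 2 (27%) or 3 (27.7%), next to 14 and 37.3%.

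Slc2a3 encodes GLUT3, a transporter of high affinity, and per length it was the more abundant of the transporter pair at 0 h, with a mean of 198 CPM per kb in wt against 62.0 CPM per kb for Slc2a1. In wt cells Slc2a3 had 1009, 1289.5 and 2009 CPM at 0 h and 115, 121 and 128 CPM at 24 h, which was 11.8-fold lower (log2 fold change -3.57 ± 0.39 (SE), adjusted p = 2.66e-06). KO#1 went from 793, 626 and 1873 CPM to 203, 205 and 273 CPM (log2 fold change -2.27 ± 0.37 (SE), adjusted p = 0.000183). In KO#2 the values were 1263, 1115 and 1048 CPM and 375, 447 and 264 CPM (log2 fold change -1.66 ± 0.36 (SE), adjusted p = 0.00269). The times do not overlap in any line, and the wt libraries ended lowest. At 24 h the libraries labelled KO#2 stood above wt (log2 fold change 1.58 ± 0.36 (SE), adjusted p = 0.00259). The difference in response was 1.91 ± 0.50 (SE), adjusted p = 0.0613, for KO#2 and 1.29 ± 0.50 (SE), adjusted p = 0.35, for KO#1. Neither difference passed the threshold in the main edgeR fit. For KO#2 it was called in 9 alternatives, 1 of which leaves out KO#2 24 h replicate 3, among them DESeq2 (1.95, adjusted p = 0.00297) and RLE size factors (1.95, adjusted p = 0.0491).

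Slc2a1, the widely expressed GLUT1, went from 237, 172 and 243 CPM to 90.7, 78.2 and 127 CPM in wt (log2 fold change -1.14 ± 0.33 (SE), adjusted p = 0.00842). Slc2a1 in KO#1 fell from 104, 105 and 195 to 47.0, 50.1 and 94.0 CPM (log2 fold change -1.08 ± 0.33 (SE), adjusted p = 0.0152, call lost in 3 of 15 alternatives). KO#2 held 150.1, 85.6 and 113 CPM at 0 h and 156, 119 and 94.7 CPM at 24 h, overlapping values. Their log2 fold change over time was 0.09 ± 0.33 (SE), adjusted p = 0.874, and at 0 h they lay below wt, with a log2 fold change of -0.90 ± 0.33 (SE), adjusted p = 0.0381 (call lost in 6 of 15 alternatives).

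Hexokinase phosphorylates glucose on entry, and Hk2 was the more abundant form per length, with 61.5 CPM per kb in wt at 0 h against 9.73 CPM per kb for Hk1. Hk1 fell in every line. It went from 108, 71.1 and 70.1 CPM to 12.4, 15.3 and 14.8 CPM in wt (log2 fold change -2.55 ± 0.31 (SE), adjusted p = 7.16e-06), and from 91.4, 138 and 70.8 to 22.9, 30.8 and 37.8 CPM in KO#1 (log2 fold change -1.71 ± 0.30 (SE), adjusted p = 0.000328). In KO#2 it went from 57.0, 40.0 and 54.1 to 24.6, 13.8 and 13.6 CPM (log2 fold change -1.54 ± 0.30 (SE), adjusted p = 0.00109). At 24 h every KO#1 library lay above every wt library (log2 fold change 1.11 ± 0.30 (SE), adjusted p = 0.0221, call lost in 5 of 15 alternatives). Hk2 went from 476, 274 and 352 to 164, 165 and 234 CPM in wt (log2 fold change -0.97 ± 0.29 (SE), adjusted p = 0.0098) and from 282, 282 and 218 to 73.9, 95.5 and 148 CPM in KO#1 (log2 fold change -1.30 ± 0.29 (SE), adjusted p = 0.00209). In the libraries labelled KO#2 Hk2 held 273, 176 and 281 CPM at 0 h and 220.0, 171 and 193 CPM at 24 h, which overlap (log2 fold change -0.32 ± 0.28 (SE), adjusted p = 0.435).

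Gpi1, which turns glucose 6-phosphate into fructose 6-phosphate, differed between the lines and passed no test over time by edgeR with TMM scaling. With library sizes alone its fall in wt was called (log2 fold change -1.01, adjusted p = 0.0157). In wt it held 555, 442 and 554 CPM at 0 h and 322, 406 and 443 CPM at 24 h. KO#1 held 189, 247 and 257 CPM at 0 h and 176, 243 and 263 CPM at 24 h. For KO#2 the values were 175, 136 and 163 CPM at 0 h and 171, 125 and 181 CPM at 24 h. Each clone lay below wt with no overlap at either time. Against wt, the log2 fold change in KO#1 was -1.16 ± 0.24 (SE), adjusted p = 0.00531, at 0 h (call lost in 2 of 15 alternatives) and -0.78 ± 0.24 (SE), adjusted p = 0.0427, at 24 h (call lost in 9 of 15 alternatives). For KO#2 the values were -1.71 ± 0.24 (SE), adjusted p = 0.000103, at 0 h and -1.30 ± 0.24 (SE), adjusted p = 0.000497, at 24 h (call lost in 1 of 15 alternatives).

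**Figure D3:**
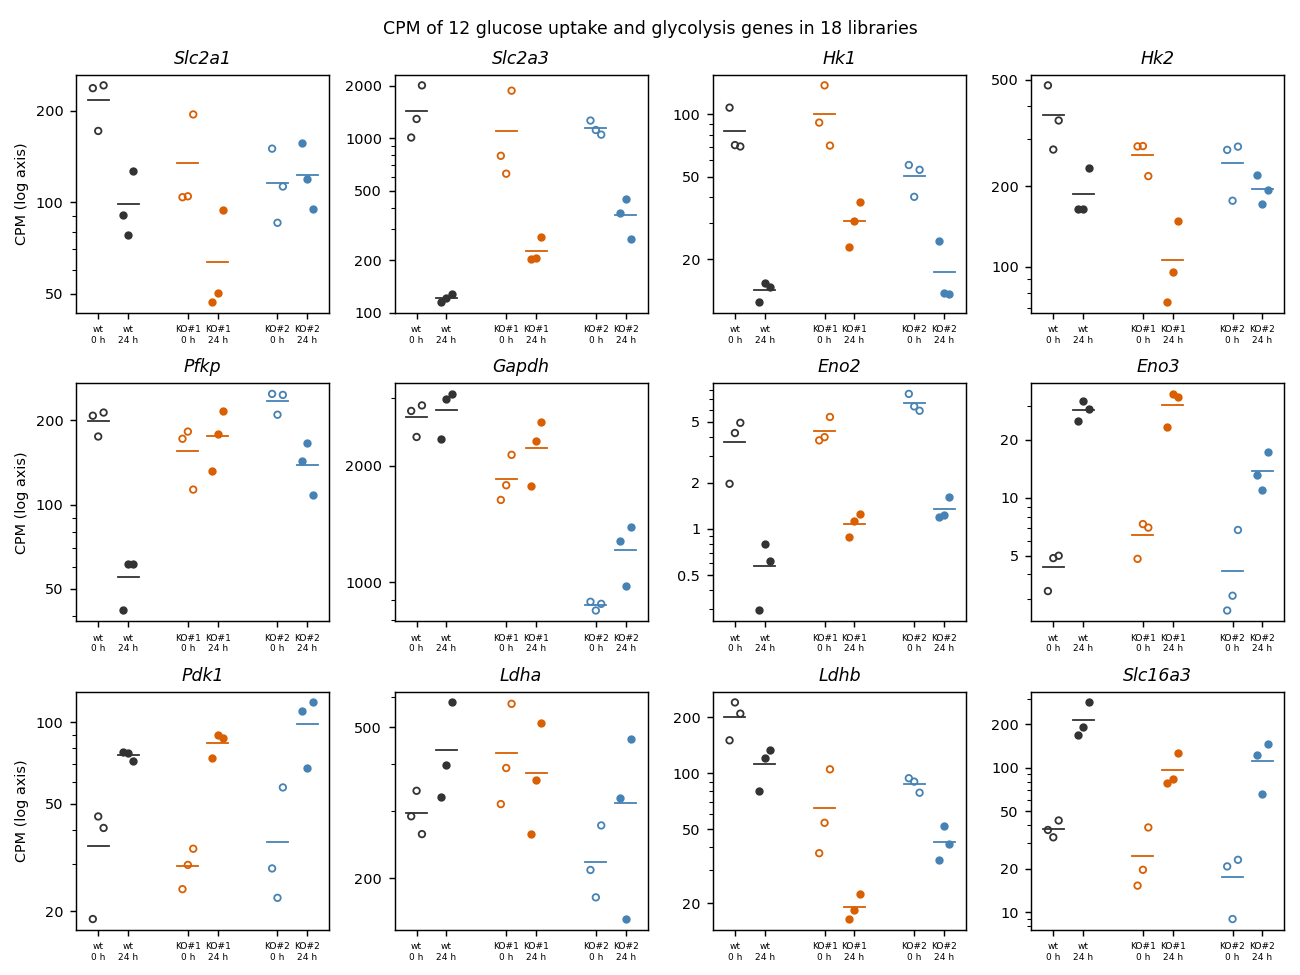
CPM (log axis) of 12 members in each of the 18 libraries, open symbols at 0 h and filled symbols at 24 h, with a line at the mean of the 3 libraries of a group. Slc2a3, Hk1 and Eno2 drop and Eno3, Pdk1 and Slc16a3 climb in every line, Pfkp drops furthest in wt, and Gapdh is lowest in the libraries labelled KO#2.

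Phosphofructokinase is the committed step, and its liver (Pfkl), muscle (Pfkm) and platelet (Pfkp) subunits form mixed tetramers. Pfkp fell over time in wt, and its change in KO#1 was not called. It went from 208, 175 and 213 CPM to 41.9, 61.6 and 61.5 CPM in wt (log2 fold change -1.85 ± 0.26 (SE), adjusted p = 2.67e-05), while KO#1 held 172, 182 and 113 CPM at 0 h and 132, 179 and 216 CPM at 24 h (log2 fold change 0.17 ± 0.25 (SE), adjusted p = 0.606). For KO#2 the values went from 249, 209.7 and 247 to 144, 166 and 108 CPM (log2 fold change -0.76 ± 0.25 (SE), adjusted p = 0.0341, call lost in 6 of 15 alternatives). At 0 h the wt libraries overlap with those of each clone, and at 24 h the wt libraries are the lowest of the 9. The response of KO#1 differed from that of wt by a log2 value of 2.03 ± 0.36 (SE), adjusted p = 0.0244, a call lost in 6 of 21 alternatives, and Pfkp was the 1 member called in this test, which called 0.391% of all genes. The call was lost with library sizes alone, where the value was 1.89 (adjusted p = 0.17). It was also lost without wt 0 h replicate 3, without wt 24 h replicate 1 or 2, and without KO#1 24 h replicate 2 or 3. Over the 21 alternatives the value ranged from 1.84 to 2.22 and the adjusted p from 1.18e-05 with DESeq2 to 0.17. At an unadjusted p under 0.05 there were 5 members. The same difference for KO#2 was 1.10 ± 0.36 (SE), adjusted p = 0.101. At 24 h, Pfkp was above wt, with a log2 fold change of 1.67 ± 0.26 (SE), adjusted p = 0.000312, in KO#1 and of 1.34 ± 0.26 (SE), adjusted p = 0.000664, in KO#2.

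For the response of KO#2 against wt, edgeR called 0 members and 1.47% of all genes, 7 members had an unadjusted p under 0.05, and DESeq2 called 2 members, Slc2a3 and Pfkp, and 8.48% of all genes.

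Pfkm rose over time in wt and KO#1. It went from 46.6, 48.3 and 48.9 CPM to 72.2, 90.2 and 95.7 CPM in wt (log2 fold change 0.84 ± 0.21 (SE), adjusted p = 0.0033, call lost in 1 of 15 alternatives) and from 44.7, 42.0 and 34.6 to 99.9, 137 and 164 CPM in KO#1 (log2 fold change 1.73 ± 0.22 (SE), adjusted p = 1.83e-05). The libraries labelled KO#2 held 42.0, 35.8 and 41.6 CPM at 0 h and 69.1, 50.5 and 55.9 CPM at 24 h (log2 fold change 0.55 ± 0.21 (SE), adjusted p = 0.0584), and at 24 h they lay below wt, with a log2 fold change of -0.56 ± 0.21 (SE), adjusted p = 0.0442 (call lost in 8 of 15 alternatives). Pfkl held 174, 122 and 161 CPM at 0 h and 86.8, 110.2 and 141 CPM at 24 h in wt. Pfkl in KO#1 held 100.4, 126 and 94.7 CPM at 0 h and 79.4, 97.3 and 144 CPM at 24 h. In KO#2 Pfkl held 82.5, 52.8 and 107 CPM at 0 h and 109, 62.4 and 136 CPM at 24 h. Its groups overlap over time in each line. Its call by edgeR with TMM scaling was the lower level in KO#2 at 0 h (log2 fold change -0.91 ± 0.32 (SE), adjusted p = 0.0309, call lost in 6 of 15 alternatives). With library sizes alone its fall in wt was called (log2 fold change -1.02, adjusted p = 0.0345).

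The Pfkfb enzymes make and remove fructose 2,6-bisphosphate, the activator of phosphofructokinase, and all 4 were low, at 0.357 to 1.37 CPM per kb in wt at 0 h. Pfkfb2 held 0.656, 7.53 and 6.26 CPM in wt at 0 h, the lowest value being 2 counts, and 2.05, 2.91 and 2.72 CPM at 24 h (log2 fold change -1.04 ± 0.44 (SE), adjusted p = 0.0582). That library, replicate 1, also had 6 counts on the overlapping read-through gene Gm29427, and with these added the wt change over time was called, as given with the copies of Eno1. In KO#1 it fell from 9.12, 5.85 and 5.55 to 2.57, 1.94 and 1.99 CPM (log2 fold change -1.65 ± 0.45 (SE), adjusted p = 0.0077). KO#2 went from 15.8, 13.9 and 13.4 to 5.38, 7.31 and 4.39 CPM (log2 fold change -1.33 ± 0.41 (SE), adjusted p = 0.0232, call lost in 3 of 14 alternatives). The libraries labelled KO#2 were highest at each time, with log2 fold changes against wt of 1.46 ± 0.42 (SE), adjusted p = 0.0133, at 0 h and 1.16 ± 0.43 (SE), adjusted p = 0.0415, at 24 h (call lost in 6 of 14 alternatives). Pfkfb1, Pfkfb3 and Pfkfb4 were called in no comparison of the main edgeR fit, and their 18 libraries spanned 1.31 to 9.81, 2.87 to 14.4 and 1.31 to 4.82 CPM. Some alternatives called Pfkfb3 or Pfkfb4. With at least 10 counts in every library, edgeR called Pfkfb3 lower over time in wt (log2 fold change -0.96, adjusted p = 0.0432).

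Aldolase cleaves fructose 1,6-bisphosphate, and Aldoa exceeded the brain form Aldoc by far, at 329 against 4.87 CPM per kb in wt at 0 h. Aldoc went from 9.18, 21.2 and 17.3 CPM to 3.75, 4.61 and 6.55 CPM in wt (log2 fold change -1.70 ± 0.40 (SE), adjusted p = 0.00226). KO#1 held 8.21, 15.7 and 13.1 CPM at 0 h and 5.51, 9.20 and 9.96 CPM at 24 h. For KO#2 the values were 8.86, 4.45 and 11.4 CPM at 0 h and 7.68, 4.22 and 8.56 CPM at 24 h, overlapping over time in each. Aldoa held 918, 844 and 1106 CPM at 0 h and 1016, 1332 and 1493 CPM at 24 h in wt. Aldoa in KO#1 held 630.2, 806 and 1091 CPM at 0 h and 792, 1095 and 1290.5 CPM at 24 h. In KO#2 Aldoa held 519, 486 and 509.9 CPM at 0 h and 694, 513 and 945 CPM at 24 h. It was called lower in KO#2 than in wt, with a log2 fold change of -0.92 ± 0.28 (SE), adjusted p = 0.0182, at 0 h (call lost in 3 of 15 alternatives) and -0.84 ± 0.28 (SE), adjusted p = 0.0278, at 24 h (call lost in 6 of 15 alternatives). Tpi1, which interconverts the triose phosphates, held 166, 201 and 169 CPM at 0 h and 231, 258 and 298 CPM at 24 h in wt. Tpi1 in KO#1 held 134, 142 and 229.6 CPM at 0 h and 140.3, 162 and 219 CPM at 24 h. In KO#2 Tpi1 held 88.5, 94.4 and 114 CPM at 0 h and 130.4, 91.3 and 221 CPM at 24 h. Its log2 fold change for KO#2 against wt was -0.85 ± 0.30 (SE), adjusted p = 0.0319, at 0 h (call lost in 6 of 15 alternatives) and -0.83 ± 0.30 (SE), adjusted p = 0.0347, at 24 h (call lost in 7 of 15 alternatives).

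Gapdh, the oxidising enzyme of the payoff phase and the internal control of the study's own PCR assays, was the most abundant member per length in wt at 0 h, at 646 CPM per kb. It held 2772, 2375 and 2865 CPM at 0 h and 2340.3, 2976 and 3068 CPM at 24 h in wt. KO#1 held 1633, 1782 and 2136 CPM at 0 h and 1777, 2320.5 and 2592 CPM at 24 h. The libraries labelled KO#2 held 891, 846 and 880.3 CPM at 0 h and 1278, 979 and 1388 CPM at 24 h, below every wt library at either time. Gapdh passed no edgeR test over time, with log2 fold changes of 0.07 ± 0.24, 0.27 ± 0.24 and 0.48 ± 0.24 in wt, KO#1 and KO#2. Against wt, KO#2 was lower, with a log2 fold change of -1.61 ± 0.25 (SE), adjusted p = 0.000198, at 0 h and of -1.20 ± 0.25 (SE), adjusted p = 0.0012, at 24 h (call lost in 1 of 15 alternatives). In KO#1 the log2 fold change was -0.53 ± 0.24 (SE), adjusted p = 0.233, at 0 h and -0.33 ± 0.24 (SE), adjusted p = 0.503, at 24 h. At 0 h every KO#1 library lay below every wt library, and DESeq2 called this difference (-0.56, adjusted p = 0.0336).

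Pgk1, an X-linked enzyme that makes ATP, was called in no comparison by edgeR with TMM scaling and spanned 155 to 466 CPM over the 18 libraries. With library sizes alone, edgeR called it lower over time in KO#1 (-0.90, adjusted p = 0.0498). It was then also higher in KO#2 than in wt at 0 h (0.97, adjusted p = 0.0448) and 24 h (0.89, adjusted p = 0.04). Pgam1, the phosphoglycerate mutase, held 336, 383 and 377 CPM at 0 h and 504, 549 and 692 CPM at 24 h in wt (log2 fold change 0.67 ± 0.26 (SE), adjusted p = 0.0377, call lost in 8 of 15 alternatives), and 286, 349.5 and 431 CPM at 0 h and 382, 475 and 638 CPM at 24 h in KO#1. KO#2 libraries held 178, 192 and 260.4 CPM at 0 h and 325, 286 and 429.8 CPM at 24 h (log2 fold change 0.72 ± 0.26 (SE), adjusted p = 0.0469, call lost in 8 of 15 alternatives). They lay below wt, with a log2 fold change of -0.80 ± 0.26 (SE), adjusted p = 0.0232, at 0 h (call lost in 6 of 15 alternatives) and of -0.75 ± 0.26 (SE), adjusted p = 0.0305, at 24 h (call lost in 6 of 15 alternatives). Pkm, the pyruvate kinase, held 2090.3, 1646 and 1746 CPM at 0 h and 2083, 2671 and 3373 CPM at 24 h in wt. Pkm in KO#1 held 1256, 1583 and 1519.9 CPM at 0 h and 1408, 1888 and 2534 CPM at 24 h. In KO#2 Pkm held 782, 778 and 1272 CPM at 0 h and 1547, 1293 and 2177 CPM at 24 h. Its call in the main edgeR fit was the lower level in KO#2 at 0 h (log2 fold change -0.95 ± 0.30 (SE), adjusted p = 0.0211, call lost in 4 of 15 alternatives). The rise of Pkm over time in KO#2 was not called there (log2 fold change 0.82, adjusted p = 0.0519). Several alternatives called it, among them DESeq2 (adjusted p = 0.0102). For KO#2 against wt at 24 h the main value was -0.70 (adjusted p = 0.0772), also called by some alternatives, among them DESeq2 (adjusted p = 0.0343).

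Enolase makes phosphoenolpyruvate, and of its 3 forms Eno1 and Eno3 rose and Eno2 fell over the induction in all 3 lines. Eno2, the neuronal form, went from 1.97, 4.22 and 4.92 CPM to 0.293, 0.801 and 0.618 CPM in wt, the latter from 5 to 10 counts (log2 fold change -2.80 ± 0.41 (SE), adjusted p = 3.78e-05). KO#1 went from 3.78, 3.97 and 5.37 to 0.882, 1.12 and 1.24 CPM (log2 fold change -2.02 ± 0.38 (SE), adjusted p = 0.000586). KO#2 went from 7.60, 6.30 and 5.90 to 1.20, 1.24 and 1.61 CPM (log2 fold change -2.28 ± 0.36 (SE), adjusted p = 0.000185). At 24 h KO#2 was above wt, with a log2 fold change of 1.28 ± 0.40 (SE), adjusted p = 0.0188 (call lost in 3 of 14 alternatives). Eno3, the muscle form, went from 3.28, 4.87 and 5.00 CPM to 24.9, 31.7 and 29.1 CPM in wt (log2 fold change 2.65 ± 0.34 (SE), adjusted p = 1.19e-05). It went from 4.82, 7.31 and 7.01 to 23.4, 34.6 and 33.2 CPM in KO#1 (log2 fold change 2.25 ± 0.33 (SE), adjusted p = 7.99e-05). In KO#2 it went from 2.60, 3.10 and 6.81 to 13.1, 11.0 and 17.4 CPM (log2 fold change 1.73 ± 0.32 (SE), adjusted p = 0.000796), and the 24 h values lay below wt, with a log2 fold change of -1.05 ± 0.31 (SE), adjusted p = 0.0133 (call lost in 2 of 15 alternatives).

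Eno1, the main form, went from 1224, 1139.5 and 1149 CPM to 1778, 2066 and 2721 CPM in wt (log2 fold change 0.90 ± 0.28 (SE), adjusted p = 0.0116, call lost in 2 of 15 alternatives). KO#1 went from 711, 753 and 930.5 to 1312, 1614 and 2087 CPM (log2 fold change 1.07 ± 0.28 (SE), adjusted p = 0.00585, call lost in 1 of 15 alternatives). KO#2 went from 357, 297 and 472 to 938, 701 and 1176 CPM (log2 fold change 1.32 ± 0.28 (SE), adjusted p = 0.00212). Against wt, KO#2 was lower, with a log2 fold change of -1.64 ± 0.28 (SE), adjusted p = 0.00044, at 0 h and of -1.22 ± 0.28 (SE), adjusted p = 0.00251, at 24 h (call lost in 2 of 15 alternatives). The Eno1 level is uncertain because 2 near-identical genes take counts beside it. They are the retrogene Eno1b, which shares 81.8% of its 31-base words with Eno1 transcripts, and the processed pseudogene Gm4735, which shares 89.5%. The pair took 1.26% to 1.87% of the summed counts in wt at 0 h and 0.802% to 1.29% at 24 h. In KO#1 it took 32.2% to 33.5% and 32.2% to 33.3%, and in the libraries labelled KO#2 35.6% to 36.3% and 36% to 37.3%. The share thus separated the lines without overlap, while the ranges of 0 h and 24 h overlapped within each line. Why the copies take a larger share in the KO libraries was not tested, and Eno1 levels of wt and KO lines are compared under this limit. With the 3 genes summed, Eno1 averaged 1189 CPM in wt, 1191 CPM in KO#1 and 587 CPM in KO#2 at 0 h. At 24 h the sums were 2211, 2489 and 1486 CPM. The summed log2 fold change in KO#1 against wt was 0 ± 0.28 (SE, adjusted p = 1) at 0 h and 0.17 ± 0.28 (SE, adjusted p = 0.807) at 24 h. For KO#2 it was -1.02 ± 0.28 (SE, adjusted p = 0.01) at 0 h and -0.57 ± 0.28 (SE, adjusted p = 0.114) at 24 h, so the call at 24 h was lost. The rise over time stayed, at 0.89 ± 0.28, 1.06 ± 0.28 and 1.34 ± 0.28 (SE) in the 3 lines. This sum was chosen after seeing the data. Copies were also found for 9 other members, and some of their shares differed between lines. The single copy of Gpi1 took 0.255% to 0.496% in wt at 0 h, 1.75% to 3.08% in KO#1 and 4.46% to 5.22% in KO#2. The 41 copies of Gapdh took 0.98% to 1.25% in wt at 0 h, 0.83% to 1.73% in KO#1 and 5.28% to 6.37% in KO#2. For the 2 copies of Pgk1 the 0 h values were 1.24% to 2.29%, 0.75% to 3.16% and 8.74% to 9.31%. Mean shares in KO#2 at 0 h were 3.41% for Pgam1 and 1.27% for Pkm, against 1.44% and 0.207% in wt. The wt mean of Pgam1 rests on 3.49% in replicate 1, against 0.359% and 0.484% in the others. In Mpc1 the 0 h mean was 15% in wt and 9.38% in KO#2. There wt replicate 1 had 33.3%, from 4 counts on the copy and 8 on Mpc1. The other wt libraries had 6.67% and 4.93%, below the 8.38% to 11% of KO#2. Tpi1 and Ldhb had under 1% in every group. In Pfkfb2 the copy, Gm29427, took 6 of 8 counts in wt 0 h replicate 1. Summing copies added the call of Pfkfb2 over time in wt (log2 fold change -1.17 ± 0.34 (SE), adjusted p = 0.00829) and changed, beside that of Eno1, no other call of these members.

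**Figure D4:**
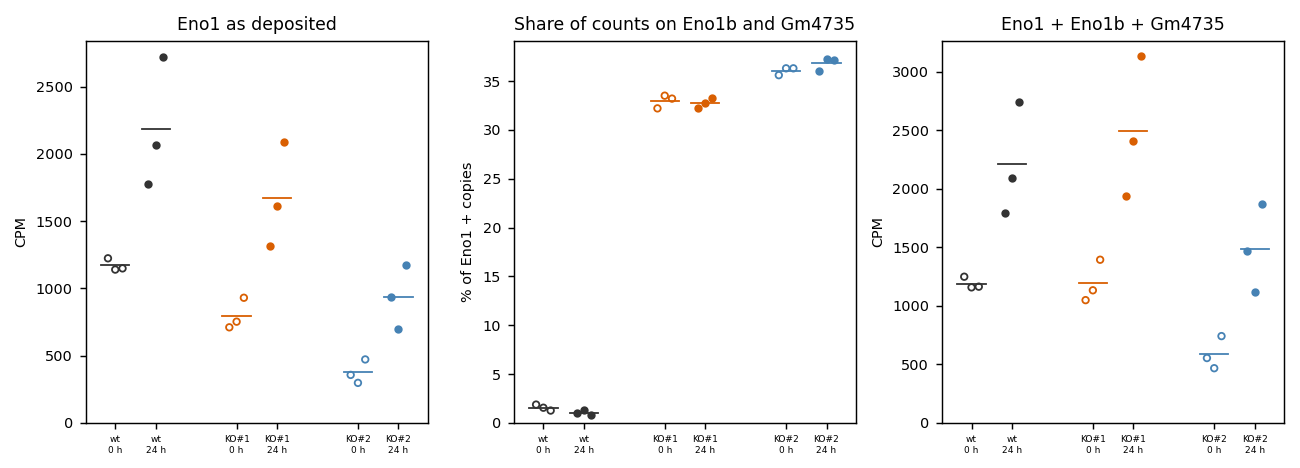
Eno1 in the 18 libraries, as CPM of the gene alone (left), as the percentage of the summed counts that fall on Eno1b and Gm4735 (middle), and as CPM of the 3 genes summed (right), open symbols at 0 h, filled at 24 h, lines at group means. The copies take under 2% in every wt library and 32.2% to 37.3% in every KO library, and the KO#1 and wt sums overlap at each time.

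Ldhb, the lactate dehydrogenase subunit typical of heart, fell over time in every line and was lower in both clones than in wt. In wt it held 149.9, 239.5 and 209 CPM and then 80.5, 120.4 and 133 CPM (log2 fold change -0.84 ± 0.31 (SE), adjusted p = 0.0314, call lost in 4 of 15 alternatives). KO#1 went from 37.1, 54.1 and 105 to 16.5, 18.3 and 22.5 CPM (log2 fold change -1.78 ± 0.32 (SE), adjusted p = 0.000453). KO#2 went from 93.9, 90.0 and 78.5 to 34.3, 51.7 and 41.5 CPM (log2 fold change -1.04 ± 0.31 (SE), adjusted p = 0.0204, call lost in 4 of 15 alternatives). At 24 h the KO#1 libraries are lowest and the wt libraries highest, with no overlap. Against wt, the log2 fold change in KO#1 was -1.61 ± 0.32 (SE), adjusted p = 0.00402, at 0 h (call lost in 1 of 15 alternatives) and -2.54 ± 0.33 (SE), adjusted p = 5.54e-05, at 24 h. For KO#2 it was -1.19 ± 0.31 (SE), adjusted p = 0.00778, at 0 h (call lost in 1 of 15 alternatives) and -1.39 ± 0.32 (SE), adjusted p = 0.00253, at 24 h (call lost in 1 of 15 alternatives). Ldha, the muscle-type subunit, was called in no comparison and spanned 156 to 581 CPM over the 18 libraries.

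Slc16a3 encodes MCT4, a monocarboxylate transporter known for lactate export from glycolytic cells, and rose in every line. It went from 37.1, 33.0 and 43.1 CPM to 168, 191 and 284 CPM in wt, which was 5.68-fold higher (log2 fold change 2.50 ± 0.40 (SE), adjusted p = 9.07e-05). In KO#1 it rose from 15.2, 19.6 and 38.6 to 78.0, 83.2 and 126 CPM (log2 fold change 1.96 ± 0.40 (SE), adjusted p = 0.00104). KO#2 went from 20.7, 8.95 and 23.0 to 122, 65.6 and 145 CPM (log2 fold change 2.66 ± 0.40 (SE), adjusted p = 0.000148). The clones started and ended below wt on average. The KO#2 difference was called at 0 h (-1.10 ± 0.39 (SE), adjusted p = 0.0336, call lost in 6 of 15 alternatives), and the 24 h values were -1.16 ± 0.38 (SE), adjusted p = 0.0643, for KO#1 (adjusted p = 0.012 with the replicate number as a block, which pairs the samples in this comparison) and -0.95 ± 0.38 (SE), adjusted p = 0.058, for KO#2. Slc16a1, the widely expressed MCT1, held 84.3, 189 and 143 CPM at 0 h and 219, 205 and 225 CPM at 24 h in wt and 112, 100.0 and 403 CPM at 0 h and 150.0, 143 and 167 CPM at 24 h in KO#1. It went from 112, 138 and 133 to 313, 179 and 362 CPM in KO#2 (log2 fold change 1.15 ± 0.42 (SE), adjusted p = 0.0494, call lost in 7 of 15 alternatives).

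The pyruvate dehydrogenase kinases did not move together. Pdk1, a kinase known as a target of hypoxia signalling, rose in every line, from 18.7, 44.8 and 40.6 CPM to 77.4, 76.8 and 71.7 CPM in wt (log2 fold change 1.10 ± 0.33 (SE), adjusted p = 0.0112, call lost in 2 of 15 alternatives). In KO#1 it rose from 24.1, 29.6 and 34.0 to 73.7, 89.9 and 87.7 CPM (log2 fold change 1.51 ± 0.34 (SE), adjusted p = 0.00211, call lost in 1 of 15 alternatives). KO#2 went from 28.8, 22.4 and 57.4 to 109.6, 67.8 and 118 CPM (log2 fold change 1.45 ± 0.33 (SE), adjusted p = 0.00403). Pdk4, a kinase induced by fasting in other tissues, went from 3.61, 4.31 and 6.76 to 1.53, 0.902 and 0.988 CPM in wt (log2 fold change -2.11 ± 0.39 (SE), adjusted p = 0.000328). KO#1 held 2.09, 1.67 and 1.40 CPM at 0 h and 1.40, 1.12 and 1.18 CPM at 24 h, already below wt at 0 h (log2 fold change -1.56 ± 0.40 (SE), adjusted p = 0.022, call lost in 5 of 14 alternatives). KO#2 held 6.14, 3.06 and 3.07 CPM at 0 h and 2.30, 3.48 and 2.22 CPM at 24 h, and the 24 h values lay above wt (log2 fold change 1.21 ± 0.38 (SE), adjusted p = 0.0194, call lost in 3 of 14 alternatives). Pdk2 went from 3.94, 2.48 and 2.67 to 0.645, 0.701 and 1.24 CPM in wt (log2 fold change -1.75 ± 0.47 (SE), adjusted p = 0.00534), and held 1.30, 2.51 and 1.69 CPM at 0 h and 1.10, 0.715 and 1.31 CPM at 24 h in KO#1. In KO#2 it held 1.46, 0.585 and 0.863 CPM at 0 h and 1.36, 0.890 and 0.565 CPM at 24 h, below wt at 0 h (log2 fold change -1.58 ± 0.45 (SE), adjusted p = 0.0125, call lost in 2 of 14 alternatives). Pdk2 rests on 7 to 36 counts per library. Pdk3 spanned 12.7 to 31.4 CPM over the 18 libraries and rose in wt (log2 fold change 0.76 ± 0.28 (SE), adjusted p = 0.0331, call lost in 5 of 15 alternatives).

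Mpc1, a subunit of the mitochondrial pyruvate carrier, went from 2.62, 15.4 and 11.3 CPM to 36.6, 21.7 and 20.3 CPM in wt (log2 fold change 1.34 ± 0.48 (SE), adjusted p = 0.0272, call lost in 4 of 14 alternatives). The first of these values is 8 counts in the shallowest library. KO#1 held 26.1, 23.0 and 61.1 CPM at 0 h and 94.5, 65.5 and 46.5 CPM at 24 h. For KO#2 the values were 21.1, 37.4 and 16.6 CPM at 0 h and 23.8, 41.9 and 28.5 CPM at 24 h, and the 0 h values of each clone lie above those of wt. The log2 fold change against wt at 0 h was 1.84 ± 0.49 (SE), adjusted p = 0.0278, in KO#1 (call lost in 4 of 14 alternatives) and 1.28 ± 0.48 (SE), adjusted p = 0.0441, in KO#2 (call lost in 5 of 14 alternatives). The KO#2 call was among those lost with the replicate number as a block (adjusted p = 0.0557). Pdha1, the X-linked catalytic subunit of pyruvate dehydrogenase, held 101, 201 and 168 CPM at 0 h and 247, 257 and 238 CPM at 24 h in wt. Pdha1 in KO#1 held 157, 155 and 321 CPM at 0 h and 246, 253 and 206 CPM at 24 h. In KO#2 Pdha1 held 269, 364 and 266 CPM at 0 h and 218, 351 and 292 CPM at 24 h. It was called higher in KO#2 at 0 h (log2 fold change 0.93 ± 0.30 (SE), adjusted p = 0.0235, call lost in 3 of 15 alternatives). Xist, the RNA of X inactivation, averaged 57.4 CPM in those libraries against 3.66 CPM in wt, and its part in the Pdha1 value was not tested.

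Ratios between 2 forms within a library do not depend on how libraries are scaled to each other. With 3 libraries against 3, the smallest two-sided exact permutation p is 0.1, so no single ratio could pass 0.05. The log2 ratio of Slc2a1 to Slc2a3 counts was higher at 24 h than at 0 h in every library of each line. The means at 0 h were -2.68 in wt, -2.93 in KO#1 and -3.33 in KO#2, the means at 24 h were -0.33, -1.89 and -1.55, and the libraries of the 2 times do not overlap (exact permutation p = 0.1 in each). At 24 h its difference from wt was -1.57 in KO#1 and -1.22 in KO#2, again without overlap (exact permutation p = 0.1 in each). The mean log2 ratio of Pfkl to Pfkp was -0.40 at 0 h and 1.03 at 24 h in wt (exact permutation p = 0.1), where KO#1 went from -0.52 to -0.73 (exact permutation p = 0.4). In KO#2 it was -1.60 at 0 h, without overlap with wt (exact permutation p = 0.1), and -0.49 at 24 h (exact permutation p = 0.2 over time). For Ldha over Ldhb, the log2 ratio was 0.59 in wt, 2.79 in KO#1 and 1.32 in KO#2 at 0 h and 1.96, 4.27 and 2.78 at 24 h. The KO#2 values at 24 h, 1.59 to 3.49, enclosed those of wt, 1.72 to 2.13 (exact permutation p = 0.4). The log2 ratio of Slc16a1 to Slc16a3 differed between 24 h and 0 h by -1.76 in wt, -2.16 in KO#1 and -1.60 in KO#2 (exact permutation p = 0.1 in each). For Hk1 over Hk2 the 24 h value was -1.76 in KO#1 against -3.71 in wt, with no overlap, and -3.54 in KO#2. In all, 10 ratios were taken over 7 comparisons. These p values were not adjusted, since none could reach 0.05.

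**Figure D5:**
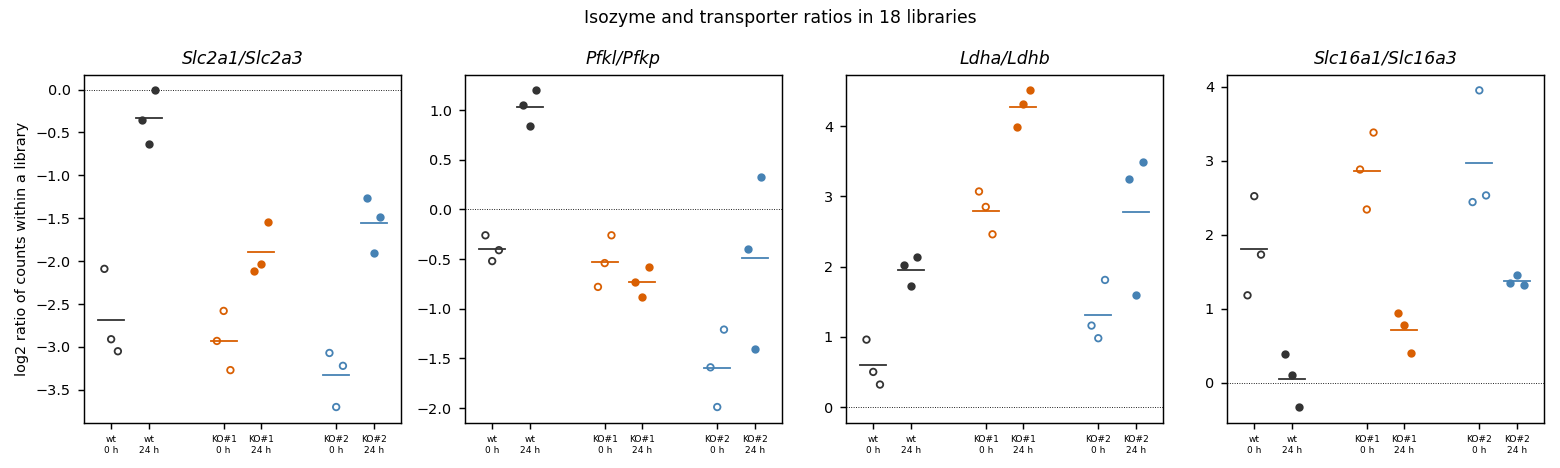
Log2 ratio of the counts of 2 members within each of the 18 libraries (vertical axis), open symbols at 0 h, filled at 24 h, lines at group means. Slc2a1/Slc2a3 climbs and Slc16a1/Slc16a3 drops in every line, Pfkl/Pfkp climbs above 0 in all wt libraries, and Ldha/Ldhb is highest in KO#1 at each time.

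Other genes of the pathway were read from lists and are given as counts, with the called gene of largest change in each list and line. Over all genes, 26% were higher and 24.7% lower over time in wt, 20.1% and 20.6% in KO#1, and 12.7% and 13.3% in KO#2. Of 8 pentose phosphate genes, which draw glucose 6-phosphate off into NADPH and ribose, 4 were higher and 1 lower over time in wt, 4 and 1 in KO#1, and 2 and 1 in KO#2. The change of largest size in wt was that of G6pdx, the entry enzyme, at 1.22 ± 0.26 (SE, adjusted p = 0.00113). Against wt, KO#2 had 0 higher and 3 lower at 0 h, where 21.5% and 16.6% of all genes were called. At 24 h it had 0 and 4, against 21.3% and 16%, with Pgls, the second enzyme, at -1.80 ± 0.25 (SE, adjusted p = 5.17e-05) at 24 h. In KO#1 the pentose phosphate split against wt was 1 and 0 at 0 h (3.99% and 2.68% of all genes) and 0 and 0 at 24 h (6.25% and 3.61%), where edgeR gave 2 of the 8 an unadjusted p under 0.05. Of 8 pyruvate entry partners, 2 were higher and 1 lower over time in wt, 0 and 1 in KO#1 and 0 and 1 in KO#2. The largest change in wt was that of Dld, the dehydrogenase subunit shared with other complexes, at 1.48 ± 0.47 (SE, adjusted p = 0.0142). Against wt, KO#1 had 1 entry partner higher and 0 lower at either time, and KO#2 had 2 and 1 at 0 h and 1 and 1 at 24 h. Of 21 other isozymes only 10 passed the filter, with 1 higher and 2 lower over time in wt, 0 and 4 in KO#1 and 0 and 3 in KO#2. Against wt, 2 isozymes were higher and 0 lower in KO#1 at 0 h and 1 and 0 at 24 h, and 1 and 1 in KO#2 at 0 h and 0 and 0 at 24 h, where edgeR gave 1 of the 10 an unadjusted p under 0.05. In wt the largest change over time was that of Ldhd, a D-lactate dehydrogenase, at -2.07 ± 0.47 (SE, adjusted p = 0.00152). In KO#1 the glucose transporter Slc2a12 led the isozymes with 1 to 6 counts per library at 0 h and 0 to 1 at 24 h, too few for a fold change. The pyruvate dehydrogenase phosphatase Pdp2 was the 1 entry partner called, at -1.10 ± 0.24 (SE), adjusted p = 0.00197, and Tigar, a fructose 2,6-bisphosphatase, led the pentose phosphate list at -1.33 ± 0.23 (SE), adjusted p = 0.000284. In KO#2 the called genes of largest change were Slc2a12 at -2.29 ± 0.61 (SE), adjusted p = 0.0112, from 9 to 40 counts at 0 h and 4 to 7 at 24 h, Pdp2 at -1.01 ± 0.24 (SE), adjusted p = 0.00545, and Pgd, which makes NADPH, at 1.47 ± 0.29 (SE), adjusted p = 0.00121.

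Hypoxia-inducible factor (HIF) is the best known inducer of glycolytic genes. Hif1a, its regulated subunit, rose in wt by 0.88 ± 0.21 (SE), adjusted p = 0.00266, and changed by 0.41 ± 0.21 (SE), adjusted p = 0.133, in KO#1 and 0.40 ± 0.21 (SE), adjusted p = 0.176, in KO#2. Against wt it was higher in KO#2 by 1.16 ± 0.22 (SE), adjusted p = 0.000798, at 0 h and 0.68 ± 0.21 (SE), adjusted p = 0.0179, at 24 h. Of 9 HIF pathway genes, 1 was higher and 3 lower in wt (26% and 24.7% of all genes), 0 and 2 in KO#1 (20.1% and 20.6%) and 1 and 1 in KO#2 (12.7% and 13.3%). Hif3a, a HIF subunit, had the largest called change in KO#2, at 1.80 ± 0.56 (SE), adjusted p = 0.0246. Egln1, the oxygen-sensing hydroxylase that marks HIF for removal, fell by 2.52 ± 0.30 on the log2 scale (adjusted p = 5.58e-06) in wt, by 1.41 ± 0.28 on the log2 scale (adjusted p = 0.000819) in KO#1 and by 1.40 ± 0.28 on the log2 scale (adjusted p = 0.00137) in KO#2. Of 12 HIF targets outside glycolysis, 2 were higher and 5 lower in wt, 1 and 5 in KO#1, and 0 and 5 in KO#2, against the same shares of all genes. Against wt at 24 h, KO#2 had 6 of these targets higher and 1 lower and 3 HIF pathway genes higher and 1 lower, where 21.3% and 16% of all genes were called. At 0 h the KO#2 counts were 3 and 1 for the targets and 1 and 3 for the pathway, against 21.5% and 16.6%. In KO#1 the targets had 0 higher and 0 lower at 0 h by edgeR, with 3 at an unadjusted p under 0.05, and 2 and 0 at 24 h. The pathway had 1 and 2 at either time, and the shares of all genes were 3.99% and 2.68% at 0 h and 6.25% and 3.61% at 24 h. Vegfa, the vascular growth factor, fell by 5.24 ± 0.37 on the log2 scale (adjusted p = 4.8e-08) in wt, by 5.52 ± 0.38 on the log2 scale (adjusted p = 4.51e-08) in KO#1 and by 2.44 ± 0.31 on the log2 scale (adjusted p = 3.36e-05) in KO#2, and its response differed between KO#2 and wt by 2.80 ± 0.45 (SE), adjusted p = 0.00649. At 24 h it was above wt in KO#2 by 2.59 ± 0.34 (SE), adjusted p = 3.1e-05. The median log2 fold changes of these HIF targets were -1.16, -0.97 and -0.44 in the 3 lines, next to 0.18, -0.04 and 0.08 for the glycolysis members.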

How the data were processed

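RNA-seq of 18 libraries, 6 groups of 3 biological replicates, was read from the raw counts per gene that the authors deposited. Per the study's methods, stranded total RNA libraries were sequenced paired end and processed with the nf-core RNA-seq pipeline, including removal of ribosomal reads and STAR alignment to mouse GRCm38. The annotation release and strand setting are not given in the sources used here.

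Counts were tested with edgeR 4.0.16 (R 4.3.3; TMM scaling, a minimum count of 10, quasi-likelihood test) in 1 fit of the 6 groups over 16619 genes, with Benjamini-Hochberg adjustment and a threshold of 0.05. The edgeR test was tried on simulated counts with known changes, for the wt change over time and the response difference of KO#1. No 2 of the 153 library pairs were identical. Fold changes are on the log2 scale with their SE. Lengths came from GENCODE M21 and promoters from RefSeq. Gene levels are shares of a library, so scaling bears on every difference between groups. Depth, and thus counting error, differed between libraries, and the 3-count floor covers counting error only.

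The members and the lists were chosen with earlier results of these data known. Members called over time by at least 1 on the log2 scale, or called between lines, are given by library, and the others by range. Alternatives were DESeq2 1.42.0, other scalings and filters, a replicate block, separate fits and leaving out each library. Same-numbered libraries deviated together in every pair only for KO#1 against wt at 24 h (mean correlation of deviations 0.43, from 0.223 to 0.587), so the numbers were taken to pair the samples there.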

Additional observations from a re-analysis of the deposited data

Results flagged for a closer look

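In the main edgeR fit, Pfkp was the 1 member whose change over the induction passed a test of the difference between lines. Slc2a3 in KO#2 did not pass there (1.91, adjusted p = 0.0613), but was called in several alternatives, among them DESeq2 (1.95, adjusted p = 0.00297). For Pfkp the log2 change in KO#1 exceeded that in wt by 2.03 ± 0.36 (SE, edgeR quasi-likelihood test, adjusted p = 0.0244). Over 21 alternatives the difference lay between 1.84 and 2.22, with adjusted p from 1.18e-05 to 0.17, and the call was lost in 6. These were library sizes alone and the fits without wt 0 h replicate 3, wt 24 h replicate 1, wt 24 h replicate 2, KO#1 24 h replicate 2 or KO#1 24 h replicate 3. In each the difference was positive. The cause was not tested.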

How the results depend on the processing

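Of 80 calls of a member in a comparison, 80 were kept with DESeq2 and 80 with RLE size factors, 78 with protein-coding genes only, 73 with only the groups compared and 72 without the filter on low counts. With at least 10 counts in every library 56 were kept and 8 lost among the members tested. Over the fits that leave out 1 library, 364 were kept and 122 lost. With library sizes alone 45 were kept and 30 lost with the same sign. In 5 more, all in KO#2 against wt at 24 h, the estimate was no longer negative and was not called (adjusted p from 0.182 to 0.994): Pfkm 0.49, Aldoa 0.19, Tpi1 0.18, Pgam1 0.27 and Eno3 0.00. The median of all genes was then 1.24. The cause of each change below was not tested, apart from the fewer samples or genes that a setting leaves.

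Counts of members called moved by over 1.5 times as follows. For KO#1 against wt at 0 h there were 2 with library sizes alone, 2 with at least 10 counts in every library and 0 with only the groups compared, instead of 4. Of all genes 4.82%, 4.87% and 3.45% were called there, instead of 6.67%. For KO#2 against wt at 0 h there were 8 with library sizes alone and 8 with at least 10 counts in every library, instead of 15, where 33.1% and 39.3% of all genes were called instead of 38.1%. For KO#2 against wt at 24 h, 9 of 14 were called with at least 10 counts in every library, and 42.2% of all genes instead of 37.3%. That filter left 25 members tested. For KO#1 against wt at 24 h there were 2 with library sizes alone and 8 with DESeq2, instead of 4, and 6.55% and 12.8% of all genes instead of 9.86%. For the response of KO#1 library sizes alone called 0, with 2 at an unadjusted p under 0.05, and 0.0241% of all genes instead of 0.391%. For the response of KO#2, instead of 0, 1 was called with RLE size factors, no filter, at least 10 counts in every library, protein-coding genes only or only the groups compared, and 2 with library sizes alone or DESeq2. The 1 was Slc2a3 in each, and the 2 were Slc2a3 and Pfkp. Of all genes 1.58%, 5.9%, 2.63%, 3.35% and 1.49% were called in the first 5 settings, 4.82% with library sizes alone and 8.48% with DESeq2, instead of 1.47%.

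Leaving out each library gave 14 to 17 members called over time in wt, 11 to 13 in KO#1 and 7 to 13 in KO#2, where 39.4% to 46.9%, 26.4% to 41.3% and 14.8% to 23.8% of all genes were called. Against wt it gave 2 to 4 in KO#1 at 0 h and 2 to 4 at 24 h, and 5 to 15 in KO#2 at 0 h and 7 to 14 at 24 h. The shares of all genes were 3.45% to 5.41% and 5.99% to 7.52% for KO#1, and 25.8% to 32.5% and 26.5% to 35% for KO#2. It gave 0 to 1 in either response, with 0.035% to 0.225% of all genes for KO#1 and 0.296% to 3.3% for KO#2.

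The replicate block kept 78 of 80 calls. It lost Mpc1 in KO#2 against wt at 0 h (1.28, adjusted p = 0.0557) and Pfkfb2 in KO#2 against wt at 24 h (1.14, adjusted p = 0.0538), and called 1 member, Slc2a3 (1.89, adjusted p = 0.0469), in the response of KO#2. For KO#1 against wt at 24 h, where the numbers pair the samples, it called 5 members instead of 4, with Slc16a3 added (-1.16, adjusted p = 0.012).

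With 5 counts added instead of 0.5, the log2 ratio of Eno1 to Eno2 moved to 2.82 in KO#1 over time and to -2.04 in KO#2 against wt at 24 h. Depth limits Pfkfb1, Pfkfb2, Pfkfb4, Eno2, Pdk2, Pdk4 and Mpc1, the 7 members with under 10 counts in some library.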
